A study of Mus musculus with 20 samples.

Results

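The response to *Rnaseh2c* knockdown was measured in the same carcinoma line in culture and as a tumor, and the 2 responses were compared gene by gene. Genes were taken that had a symbol in both tables and a mean of at least 1 in each, which left 8510 genes of 10723 tumor genes at that level and of 31355 symbols listed in either table. For each gene the mean log2(value + 0.5) of scramble libraries was subtracted from that of knockdown libraries, once in tumors and once in cells. The line was Mvt1, derived from a mammary carcinoma of FVB mice, and every library carried either a scramble control shRNA or the shRNA called sh4 against *Rnaseh2c*. Tumor libraries were mRNA of primary tumors, labelled 30 days after orthotopic implantation into syngeneic mice, with 1 scramble and 1 sh4 tumor from each of 3 experiments. Cell libraries were total RNA of 3 cultures of each kind. Each condition was 1 shRNA line, so the line and the knockdown cannot be told apart, and the shared line also links the tumors to the cells. The exome libraries of metastases were not used here.

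RNase H2 is a nuclear enzyme that cuts the RNA strand of RNA-DNA hybrids and starts the removal of ribonucleotides built into DNA, and *Rnaseh2c* encodes its C subunit. Loss of the enzyme in people is a cause of Aicardi-Goutières syndrome, an inflammatory disease with raised interferon signaling. A cultured line reports the response of the carcinoma cells alone, whereas a piece of tumor holds those cells together with immune cells, vessels, fibroblasts and fat. In such bulk RNA, fewer cells of a type and less RNA per cell cannot be told apart.

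Values were RPKM in tumors and FPKM in cells, both reads scaled to gene length and library size, and the tables were normalized separately, so that only differences within a table were tested. A difference of 1 on the log2 scale is a doubling, and the pseudocount of 0.5 shrinks the differences of low genes. Compared genes had medians of 7.14 to 9.30 RPKM in tumor libraries and 5.93 to 6.46 FPKM in cell libraries. Keratins *Krt8* and *Krt18* were high in both materials (248 to 691 and 160 to 399 RPKM in tumors, 269 to 349 and 165 to 217 FPKM in cells). The epithelial adhesion genes *Epcam* and *Cdh1* were at most 2.09 RPKM in tumors and at most 0.023 FPKM in cells. T cell, endothelial, fibroblast and adipocyte markers were present in tumors and under 1 FPKM in cells, where 4 of 5 T cell markers were at 0 in every library. Of 5 macrophage markers, *Cd68* and *Csf1r* were above 1 FPKM in cells and *C1qa* and *Emr1* were at 0. Summed T cell markers ran from 20.7 to 26.8 RPKM in scramble and from 42.2 to 79.5 RPKM in sh4 tumors, and summed epithelial markers from 586 to 1105 and from 415 to 744 RPKM. Other tissue varied more within a group. Summed adipocyte markers ran from 23.6 to 1663 RPKM in scramble and from 34.4 to 226 RPKM in sh4 tumors. Summed muscle markers ran from 0.354 to 33.5 and from 0.469 to 10.7 RPKM, and red blood cell markers also varied widely. The part of such tissue in the tumor differences was not tested. The median centred value of transcripts under 1000 bases minus that of transcripts over 4000 bases was taken for each library (log2 units). It ranged from -0.44 to 0.54 in tumors, highest in both tumors of experiment 2. In cells it ranged from -0.16 to 0.08, lowest in scramble culture 1. Labels name the cultures as plates of 1 line, so p-values measure the spread between these libraries, which may in part be technical.

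The target itself was lower in both materials. *Rnaseh2c* (ENSMUSG00000024925.10, chr19:5601873-5603439 on the plus strand of mm9) was at 26.9, 52.0 and 25.9 RPKM in scramble tumors 1 to 3 and 10.2, 22.4 and 19.8 RPKM in sh4 tumors. In cells it was at 5.83, 7.06 and 5.34 FPKM with scramble and 3.19, 5.36 and 4.28 FPKM with sh4. The tumor groups did not overlap, and in cells sh4 culture 2 lay above scramble culture 3 by a small margin. *Rnaseh2c* differed by -0.98 ± 0.37 (SE, n = 3 against 3) in tumors and -0.48 ± 0.18 in cells, with limma adjusted p of 0.995 and 0.236. An exact two-sided permutation test gave p = 0.1 for *Rnaseh2c* in tumors, the smallest that 3 against 3 allow, and p = 0.2 in cells. Within experiments 1, 2 and 3, *Rnaseh2c* differed by -1.36, -1.20 and -0.38, and flipping signs within experiments gave an exact two-sided permutation p of 0.25, the smallest that 3 pairs allow. The difference of these differences was -0.50 with a 95% interval from -1.47 to 0.47. *Rnaseh2a*, the catalytic subunit, differed by 0.25 in tumors and 0.08 in cells, and *Rnaseh1*, the other cellular RNase H, by -0.02 and 0.03. *Rnaseh2b*, the remaining subunit, was below 1 FPKM in cells and is not among the compared genes.

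Across the 8510 compared genes, the tumor and cell differences were only weakly related. Pearson's r was 0.14 and Spearman's rho 0.15, given as descriptions across genes, which share the 6 libraries of their table and are not replicates. The 2 differences had the same sign in 53.9% of genes, where the share of positive and negative values in each table alone would give 49.5%. The tumor differences were shifted downward (median -0.08, with 64.5% of genes negative), while cell differences were centred near 0 (median 0.007). Therefore 2834 genes were lower in both, 1756 higher in both, 2655 higher in cells and lower in tumors, and 1265 the reverse. Taking each of the 3 tumor experiments alone, r with the cells was 0.12, 0.05 and 0.11. The experiments themselves were related to each other by r of 0.06 (experiments 1 and 2), -0.26 (1 and 3) and 0.33 (2 and 3). The r of cells with each tumor experiment lay within this wide range. The cell difference averaged 3 libraries of each kind and a tumor experiment held 1 of each. The 2 kinds of r are therefore not alike, and their levels cannot be set against each other. The median SE of a gene's difference was 0.23 in tumors and 0.08 in cells.

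**Figure D1:**
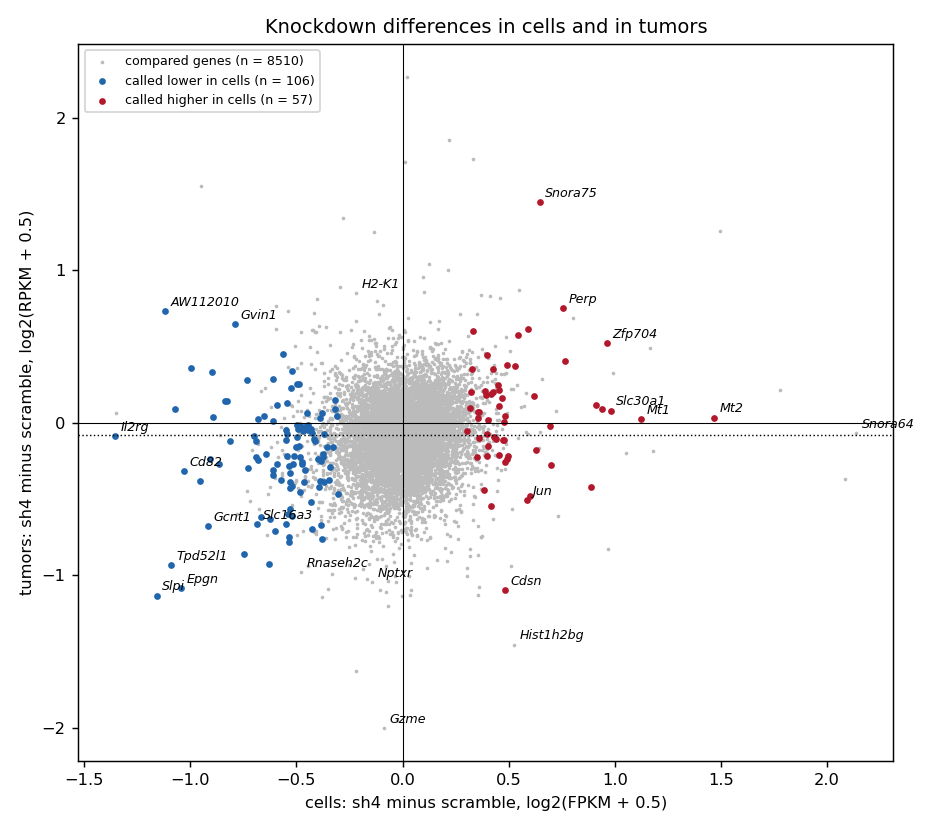
Difference between sh4 and scramble libraries in cells (x axis, log2(FPKM + 0.5)) and in tumors (y axis, log2(RPKM + 0.5)) for each of 8510 compared genes (grey). The 106 genes called lower in cells (blue) lie mostly under the horizontal zero line and the 57 called higher (red) on both sides of it, while the dotted line gives the median tumor difference of -0.08.

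In tumors limma called 0 of 13487 tested genes (0% of the table, with 564 at an unadjusted p under 0.05 and a smallest adjusted p of 0.693), so the direction of agreement was read from the cells. There limma called 110 genes higher (0.521% of 21106 tested) and 160 lower (0.758%) in sh4 cells at an adjusted p under 0.05. Under median-ratio scaling these counts were 511 and 450. Of the called genes, 57 higher (0.67%) and 106 lower ones (1.25%) were among the 8510 compared. These calls depended on which cultures were used. Without any 1 culture other than scramble culture 1 the calls in cells numbered 2 to 18, and without scramble culture 1 they numbered 242, with 109 of the 163 compared calls among them. All 163 kept their sign and an unadjusted p under 0.05 in each of these 6 fits. These fits reuse the libraries that chose the genes, so that result was largely fixed in advance.

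Genes called lower in cells leaned the same way in tumors. Of 106, 80 (75.5%) had a negative tumor difference, against 64.5% of all compared genes, and their median tumor difference was -0.22, against -0.08 for all. In tumor experiments 1, 2 and 3 the share was 53.8%, 68.9% and 74.5%, against 43.3%, 63.0% and 65.1% for all compared genes. The sh4 tumors lay below all scramble tumors for 14 of the 106 (13.2%), against 5.95% of compared genes, and above them for 1. Genes called higher in cells leaned the same way too. Of 57, 34 (59.6%) had a positive tumor difference, against 35.5% of all, and the median was 0.05. In the experiments this share was 73.7%, 43.9% and 43.9%, against 56.7%, 37.0% and 34.9%. The sh4 tumors were separated upward for 4 of the 57 (7.02%, against 1.96% of compared genes) and downward for 3. Under quantile normalization 67.0% of the 106 were lower and 64.9% of the 57 higher in tumors, where 53.1% of all compared genes were lower. Of 62 genes called lower with a cell difference of at least 0.5 in size, 16 had a tumor difference of at least 0.5 in the same direction and 2 in the opposite one. Of 19 called higher at that size, 5 had it in the same direction and 1 in the opposite one.

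Each tumor was also given 1 value, the mean centred log2 value of the 57 genes called higher in cells minus that of the 106 called lower. Scramble tumors stood at -0.17, -0.13 and -0.10 by experiment, and their sh4 partners at 0.06, 0.20 and 0.15. The tumor groups did not overlap on this measure. Its genes were called in cells, and tumor values entered their choice only through the required mean of at least 1 RPKM. The cell libraries, which had chosen the genes, stood at -0.58 to -0.54 and 0.53 to 0.58, so the tumor spread was the smaller of the 2. The value was lowest of the sh4 tumors in experiment 1.

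**Figure D2:**
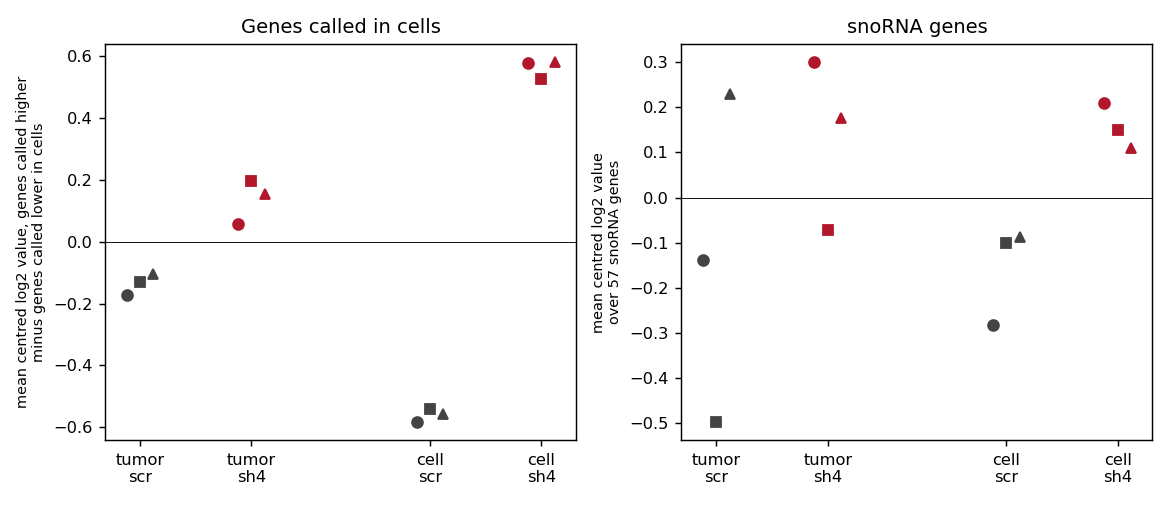
Each point is 1 library (circle, square and triangle for numbers 1 to 3, grey for scramble and red for sh4), and the y axes are in log2 units centred on the mean of each table. The left panel shows genes called higher minus genes called lower in cells, where sh4 tumors (0.06 to 0.20) lie above scramble tumors (-0.17 to -0.10), and the right panel the mean of 57 snoRNA genes, where the tumor groups overlap.

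The size of the cell difference carried limited information on the tumor difference. Median tumor differences went from -0.22 in the 80 genes with a cell difference between -0.75 and -0.5, through -0.09 in the 4000 genes between -0.1 and 0.1, to 0.03 in the 30 genes between 0.5 and 0.75. The 22 genes below -0.75 broke this order with a median of -0.08 and 54.5% lower in tumors, and the highest class, above 0.75, held only 19 genes (median 0.09). Only 3 genes reached a 2-fold difference in both tables in the same direction, 2 of them lower and 1 higher, and 0 did so in opposite directions. The relation was of like size in genes of low, middle and high cell level (r of 0.14, 0.18 and 0.18) and in genes with a low, middle and high ratio of tumor to cell level (0.13, 0.18 and 0.16), a ratio set across separately normalized tables.

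**Figure D3:**
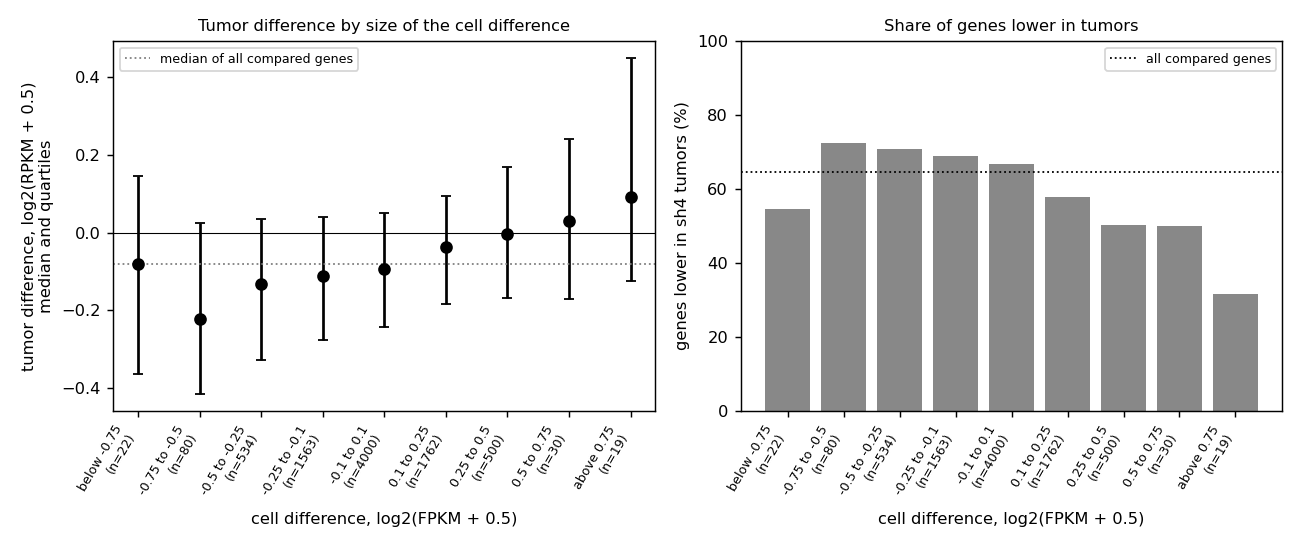
Tumor differences (log2(RPKM + 0.5)) of compared genes in classes of the cell difference, as median and quartiles (left) and as the share of genes lower in sh4 tumors (right, %). The dotted lines are all 8510 genes, at -0.08 and 64.5%, and the share lower in tumors goes from 72.5% at cell differences of -0.75 to -0.5 to 50% at 0.5 to 0.75.

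A joint limma fit of both tables asked which genes responded on average over tumors and cells, with each difference taken within its table. It called 0 of 8510 genes at an adjusted p under 0.05, with 229 higher and 556 lower at an unadjusted p under 0.05 and 9 genes at an adjusted p under 0.1. With the number of the experiment or culture as a block it called 1 gene, *Epgn* (limma adjusted p = 0.049). One library decided these counts. Without the sh4 tumor of experiment 1 the joint fit called 124 genes higher and 507 lower, with *Epgn*, *Mgst1* and *Gcnt1* at the smallest p. The test of the difference between the tumor and the cell response called 0 genes as well (170 higher and 282 lower in tumors relative to cells at an unadjusted p under 0.05, smallest adjusted p 0.245), and 232 without that tumor. On simulated data these joint tests made more false calls than their threshold allows, so counts of calls from them may be too high.

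Among genes lower in both materials, *Epgn* encodes epigen, a ligand of the EGF receptor. It was at 5.97, 5.22 and 5.54 RPKM in scramble and 4.11, 1.96 and 1.56 RPKM in sh4 tumors, and at 4.43, 4.59 and 4.60 against 1.95, 2.12 and 1.76 FPKM in cells. Every sh4 library was below every scramble library of its table, and the sh4 tumor of experiment 1 was nearest to the controls. *Epgn* fell by 1.05 in cells (SE 0.07, limma adjusted p = 0.0080) and differed by -1.08 ± 0.31 (SE) in tumors, a tumor minus cell difference of -0.04 with a 95% interval from -0.75 to 0.67. Its promoter, 300 bases around the start site (RefSeq, GRCm38.p6, chr5:91027267-91027566, plus strand), is shown because *Epgn* was 1 of the 2 genes lower 2-fold in both tables and the one whose tumor groups did not overlap. Capitals mark the letters TATAAA, searched on both strands, which 13.6% of all 32851 promoters and 6.39% of those of 8261 compared genes hold.
Epgn: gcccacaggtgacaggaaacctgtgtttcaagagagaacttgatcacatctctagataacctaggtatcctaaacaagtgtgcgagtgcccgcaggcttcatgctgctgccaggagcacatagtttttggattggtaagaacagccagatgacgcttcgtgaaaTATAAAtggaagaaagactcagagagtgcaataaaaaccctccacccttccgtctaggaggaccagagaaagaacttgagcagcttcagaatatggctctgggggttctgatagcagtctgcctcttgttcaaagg

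*Tpd52l1*, a member of the tumor protein D52 family, was at 5.31, 14.5 and 7.52 RPKM in scramble and 4.71, 4.68 and 3.21 RPKM in sh4 tumors. In cells it was at 4.08, 4.63 and 4.78 against 1.73, 1.98 and 1.83 FPKM. Its groups did not overlap in either table, and *Tpd52l1* fell by 1.09 in cells (limma adjusted p = 0.0096) beside a tumor difference of -0.93 ± 0.36 (SE). *Slc16a3*, the lactate exporter MCT4, was at 17.3, 23.8 and 19.5 against 9.73, 14.2 and 13.9 RPKM in tumors, again without overlap. It was at 3.03, 3.47 and 3.59 against 2.15, 1.83 and 1.74 FPKM in cells, where it fell by 0.68 (limma adjusted p = 0.040), beside -0.67 ± 0.21 (SE) in tumors. *Gcnt1*, a glycosyltransferase that branches O-glycans, fell by 0.92 in cells, while its tumor values of 1.63, 0.56 and 0.56 RPKM with sh4 overlapped the scramble values of 1.58, 2.03 and 1.37 RPKM through experiment 1 alone. *Slpi*, a secreted inhibitor of leukocyte proteases, fell by 1.16 in cells. Its tumor difference of -1.13 had an SE of 0.88, since *Slpi* stood at 74.9 RPKM in scramble tumor 2, at 7.70 and 9.11 RPKM in the others and at 3.02, 10.7 and 13.8 RPKM in sh4 tumors. *Thbs1*, the matrix glycoprotein thrombospondin 1, fell by 0.62 in cells with a tumor difference of -0.63 ± 0.56 (SE) and overlapping tumors.

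Other genes had tight tumor values at smaller sizes. *Txndc12* and *Ssr2*, which encode a thioredoxin-like protein and a translocon-associated subunit of the endoplasmic reticulum, fell by 0.61 each in cells. In tumors *Txndc12* was at 63.1 to 65.5 RPKM with scramble and 46.9 to 55.0 RPKM with sh4, and *Ssr2* at 97.9 to 108 and 79.2 to 85.7 RPKM. Neither gene overlapped between groups in either table, and their tumor differences were -0.34 and -0.31. *Cd82*, a tetraspanin known as a metastasis suppressor, fell by 1.03 in cells, from 4.37 to 4.71 FPKM with scramble to 1.83 to 2.09 FPKM with sh4. In tumors *Cd82* was at 38.9, 53.3 and 44.5 RPKM with scramble and 41.4, 32.2 and 35.6 RPKM with sh4, a difference of -0.32 ± 0.18 (SE) with overlap in experiment 1. *Nptxr*, a neuronal pentraxin receptor, had the smallest p of the shared response (limma adjusted p = 0.071), but largely from tumors. It was at 11.1 to 11.5 RPKM with scramble and 4.70 to 6.04 RPKM with sh4 there, against 15.9 to 17.5 and 14.8 to 15.7 FPKM in cells. *Nptxr* overlaps *Npcd* on the same strand, so the counting may have split reads between these genes.

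**Figure D4:**
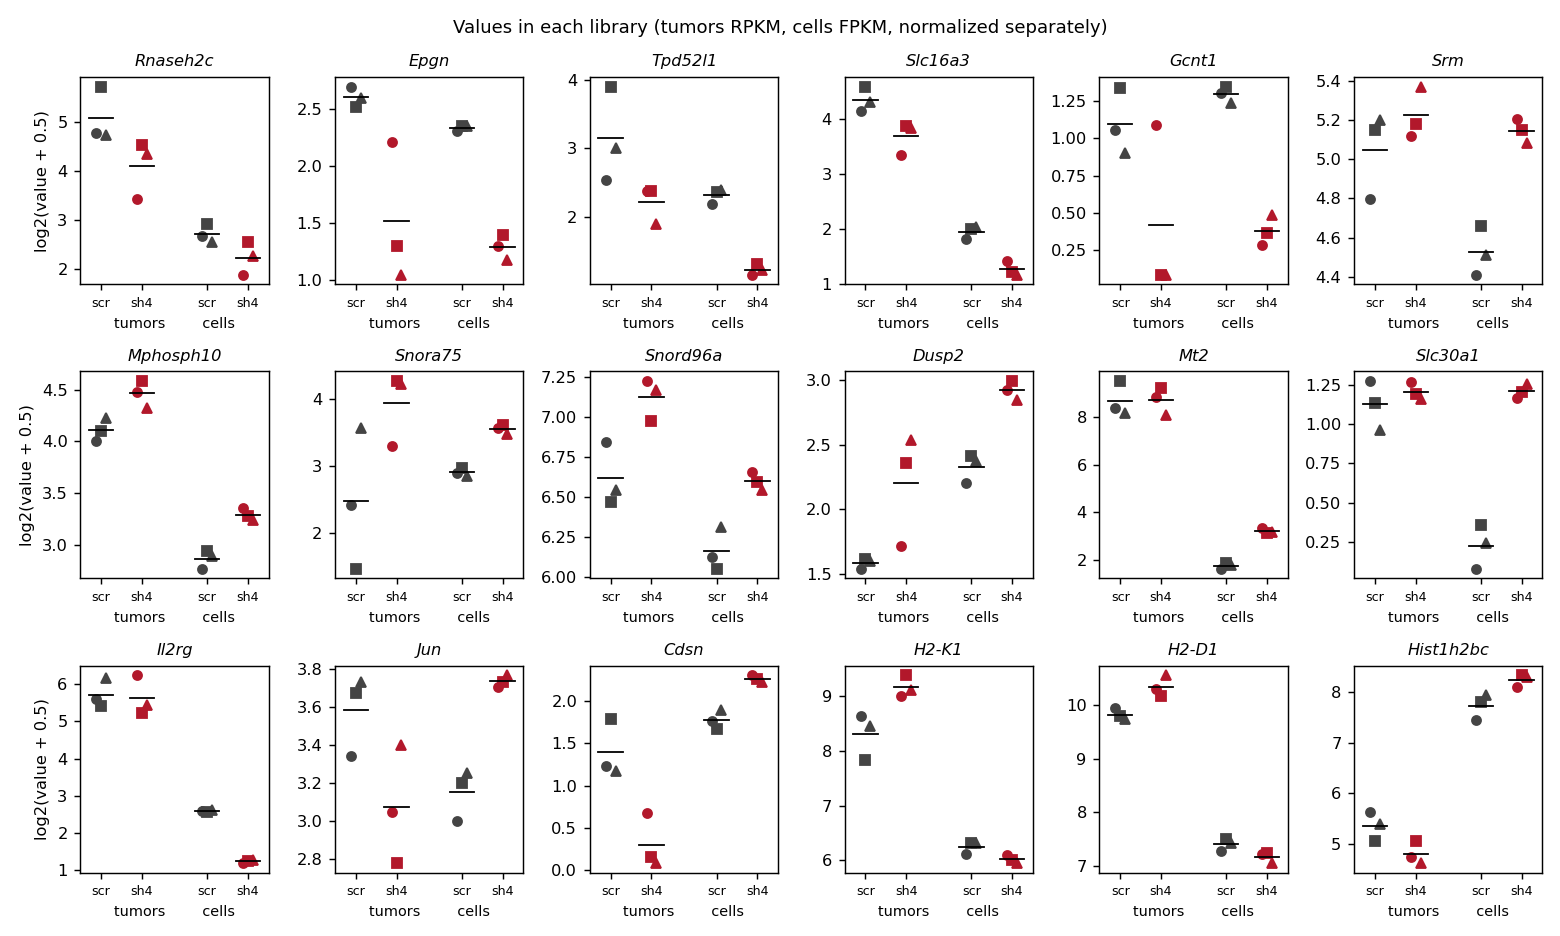
Values of selected genes in each library on the log2(value + 0.5) scale, with tumors (RPKM) on the left and cells (FPKM) on the right of each panel, circles, squares and triangles for numbers 1 to 3, grey for scramble, red for sh4 and a bar at the group mean. Epgn, Tpd52l1 and Slc16a3 lie lower with sh4 in both materials, Mphosph10 and Snord96a higher in both, Mt2 and Il2rg are separated in cells alone, and Cdsn, H2-K1, H2-D1 and Hist1h2bc go in opposite directions.

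Genes higher in both materials were fewer among the calls, and small nucleolar RNAs stood out by their number. These RNAs guide the chemical modification of ribosomal RNA and are mostly cut from introns of host genes for ribosomal and nucleolar proteins. Of 57 snoRNA genes compared, 40 were higher in both tables and 0 lower in both, against 20.6% and 33.3% of all compared genes. Their median difference was 0.29 in tumors and 0.32 in cells, and 37 to 42 were higher in both under the other scalings. Among themselves the differences were not related (r of -0.03 over the 57). In tumors 45 were higher, 5 (8.77%, against 1.96% of compared genes) had sh4 tumors separated upward, and the median by experiment was 0.48, 0.33 and 0.001. In cells 4 of the 57 (7.02%) were called higher, against 0.67% of compared genes, and 0 lower.

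The 6 snoRNAs that were called in cells or separated upward in both tables are printed from mm9 (NCBIM37), on the strand of the gene, as annotated. Snora75 lies at chr1:88247744-88247876 (minus) within an intron of *Ncl*, Snora41 at chr1:63225578-63225709 (plus) within *Eef1b2* and Snora33 at chr10:23505153-23505281 (minus) within *Rps12*, and none of these 3 overlaps an annotated exon of its host. Snord96a lies at chr11:48615534-48615614 (plus) within *Gnb2l1*, where 2 annotated host exons overlap it. Snord22 lies at chr19:8800356-8800481 (plus) within *Snhg1*, likewise overlapped by 2 host exons, and Snord49a at chr11:62416952-62417023 (plus) within *2410006H16Rik*, with none. Capitals in Snora genes, which guide pseudouridylation, mark the last ACA near the 3′ end as the ACA box. In Snora41 an earlier ACA overlaps the marked one and may be the box instead. In Snord genes, which guide 2′-O-methylation as a class, capitals mark the C box (TGATGA) and D box (CTGA). The search marked no C box in Snord22.
Snora75: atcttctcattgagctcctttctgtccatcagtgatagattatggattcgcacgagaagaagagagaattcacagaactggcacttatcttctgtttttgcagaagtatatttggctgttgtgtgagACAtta
Snora41: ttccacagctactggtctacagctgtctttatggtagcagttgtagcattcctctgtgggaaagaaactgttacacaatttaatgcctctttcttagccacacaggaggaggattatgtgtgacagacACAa
Snora33: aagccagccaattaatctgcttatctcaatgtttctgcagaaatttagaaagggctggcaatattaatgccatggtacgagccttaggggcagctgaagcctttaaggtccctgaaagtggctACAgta
Snord96a: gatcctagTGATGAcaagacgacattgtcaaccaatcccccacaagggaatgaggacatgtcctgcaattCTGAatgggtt
Snord22: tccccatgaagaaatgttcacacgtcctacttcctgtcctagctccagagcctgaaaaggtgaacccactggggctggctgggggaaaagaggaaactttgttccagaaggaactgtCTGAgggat
Snord49a: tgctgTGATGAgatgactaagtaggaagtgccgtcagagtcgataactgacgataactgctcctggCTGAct

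Snora75 was at 4.87, 2.27 and 11.4 RPKM in scramble and 9.40, 18.8 and 18.2 RPKM in sh4 tumors. In cells it was at 6.95, 7.36 and 6.73 against 11.4, 11.8 and 10.6 FPKM. The tumor groups of Snora75 overlapped, and it rose by 0.65 in cells (limma adjusted p = 0.018) beside 1.45 ± 0.52 (SE) in tumors. Its host *Ncl*, which encodes nucleolin, differed by 0.45 in tumors and 0.30 in cells. Snord96a was at 114, 88.1 and 92.8 against 149, 125 and 143 RPKM in tumors and at 69.2, 65.7 and 78.9 against 100.4, 96.3 and 92.6 FPKM in cells, without overlap in either. Snora41 was at most 14.98 RPKM with scramble and at least 16.97 RPKM with sh4 in tumors, and at 10.1, 12.5 and 11.5 against 15.9, 15.7 and 15.7 FPKM, also without overlap. The cell differences of Snord96a and Snora41 were 0.44 and 0.46, and both missed the threshold (limma adjusted p = 0.067 and 0.057). Snord22 was at 99.2, 128 and 137 against 155, 205 and 194 RPKM in tumors and at 63.5, 65.4 and 68.0 against 83.4, 81.9 and 82.9 FPKM in cells. It was separated in both tables, and rose by 0.33 in cells (limma adjusted p = 0.045) beside 0.61 ± 0.19 (SE) in tumors. Snord49a rose by 0.40 in cells with 0.44 ± 0.34 (SE) in tumors, where the groups overlapped. Snora33 rose by 0.55 in cells and differed by 0.58 ± 0.32 (SE) in tumors, with overlap. Of 48 snoRNAs whose host gene was compared, 37 stood above their host's difference in cells and 32 in tumors, and the 36 hosts had medians of 0.11 and 0.08. RNA this short is caught to a varying extent in library preparation. The 551 genes with transcripts of at most 1000 bases had a median tumor difference of 0.02, against -0.09 for the 2704 over 4000 bases. In cells these medians were 0.06 and -0.01. Tumor libraries were mRNA and cell libraries total RNA. Reads of host transcripts can also fall on a snoRNA, and host exons overlap Snord96a and Snord22. The parts of transcript length, library type and host transcripts in the snoRNA values were not tested.

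Nucleolar protein genes had the same direction. Of 19 compared genes of the Myc network and nucleolar factors, 15 were higher in both tables and 0 lower in both, with medians of 0.15 in tumors and 0.28 in cells and 0 called in either. *Nolc1*, a nucleolar chaperone of snoRNPs, differed by 0.47 and 0.33 in tumors and cells, and *Nop56*, a core protein of box C/D snoRNPs, by 0.48 and 0.31. For both genes all sh4 libraries lay above all scramble libraries in each table. *Mphosph10*, a component of the machinery for 18S ribosomal RNA, was at 15.5, 16.6 and 18.2 against 21.8, 23.5 and 19.6 RPKM in tumors and rose by 0.42 in cells (limma adjusted p = 0.049). *Srm*, spermidine synthase, rose by 0.62 in cells with 0.18 ± 0.17 (SE) in tumors. Of 28 ribosomal protein genes 20 were higher in both, yet their cell median turned from 0.05 to -0.03 under quantile normalization. Outside this group, *Dusp2*, a nuclear phosphatase of MAP kinases, was at 2.41, 2.57 and 2.54 against 2.79, 4.62 and 5.30 RPKM in tumors and rose by 0.59 in cells. *Perp*, a p53 target of cell junctions, rose by 0.76 in cells and differed by 0.75 in tumors, where 24.5 RPKM in sh4 tumor 1 stood against 5.28 to 8.60 RPKM in all others. *Zfp704*, a zinc finger gene, rose by 0.96 in cells with a tumor difference of 0.52 ± 0.32 (SE).

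Several of the largest responses of cells had no counterpart of that size in tumors. *Mt1* and *Mt2*, metal-binding metallothioneins, and *Slc30a1*, the zinc exporter ZnT1, are classical targets of the zinc sensor MTF1. *Mt2* was at 2.59, 3.14 and 2.92 FPKM in scramble and 9.58, 8.38 and 8.58 FPKM in sh4 cells, and rose by 1.47 (limma adjusted p = 0.0058). In tumors *Mt2* was at 334, 736 and 287 against 466, 601 and 271 RPKM, a difference of 0.03 ± 0.42 (SE) with overlap. *Mt1* rose by 1.12 in cells beside 0.02 ± 0.39 (SE) in tumors. *Slc30a1* was at 0.56, 0.78 and 0.68 against 1.74, 1.81 and 1.88 FPKM in cells and rose by 0.98, while its tumor values were 1.92, 1.69 and 1.45 against 1.90, 1.78 and 1.74 RPKM. The tumor minus cell difference of *Slc30a1* was -0.90, with a 95% interval from -1.29 to -0.51 that leaves out 0, yet limma's adjusted p over all genes was 0.350. For *Mt2* it was -1.43, from -2.45 to -0.42. Metallothionein levels were far higher in tumors than in cells (a median of 329 RPKM against 17.9 FPKM for both genes), across separately normalized tables.

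The promoters of these 3 genes are shown for the metal response element, the site MTF1 binds, here searched as TGCNCNC on both strands and marked in capitals, with overlapping matches counted (RefSeq, GRCm38.p6, chr8:94178839-94179138, chr8:94172368-94172667 and chr1:191906531-191906830, all plus strand). *Mt1* holds 3, *Mt2* 6 and *Slc30a1* 2 matches. Of all promoters of this length 51.0% hold at least 1, 20.2% at least 2, 7.10% at least 3 and 0.225% at least 6, so the letters alone are common. Among the promoters of 8261 compared genes 60.3% hold at least 1 and 27.4% at least 2, and the promoter of *Epgn*, which fell in cells, holds 2.
Mt1: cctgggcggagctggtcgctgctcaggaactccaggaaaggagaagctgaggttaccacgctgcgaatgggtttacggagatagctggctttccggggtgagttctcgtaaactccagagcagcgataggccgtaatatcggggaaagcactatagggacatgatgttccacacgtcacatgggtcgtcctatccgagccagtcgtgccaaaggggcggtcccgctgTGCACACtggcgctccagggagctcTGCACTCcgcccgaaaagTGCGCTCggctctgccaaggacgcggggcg
Mt2: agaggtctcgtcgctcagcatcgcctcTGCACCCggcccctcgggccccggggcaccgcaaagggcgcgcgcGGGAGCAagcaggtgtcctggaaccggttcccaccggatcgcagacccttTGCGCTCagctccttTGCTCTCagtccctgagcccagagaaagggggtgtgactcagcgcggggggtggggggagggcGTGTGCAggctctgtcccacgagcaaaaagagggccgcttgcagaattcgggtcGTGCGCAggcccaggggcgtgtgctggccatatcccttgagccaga
Slc30a1: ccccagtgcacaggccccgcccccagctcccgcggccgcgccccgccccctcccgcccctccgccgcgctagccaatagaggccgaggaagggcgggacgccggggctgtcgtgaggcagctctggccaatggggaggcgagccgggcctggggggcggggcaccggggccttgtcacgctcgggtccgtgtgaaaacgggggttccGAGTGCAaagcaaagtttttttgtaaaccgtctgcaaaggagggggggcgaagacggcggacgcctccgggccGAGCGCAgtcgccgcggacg

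*Il2rg*, the common gamma chain of interleukin receptors, had the largest fall in cells among the compared genes called there. It was at 5.45, 5.37 and 5.62 FPKM with scramble and 1.76, 1.87 and 1.89 FPKM with sh4, and fell by 1.35 (limma adjusted p = 0.0020). In tumors *Il2rg* was at 47.7, 42.1 and 71.0 against 75.7, 36.9 and 42.7 RPKM, a difference of -0.09 ± 0.31 (SE) with full overlap. Lymphocytes also express this gene, and T cell markers were higher in sh4 tumors as given above. Their part in the *Il2rg* value was not tested. In the other direction, *Spp1*, which encodes osteopontin, was at 196, 203 and 244 against 114, 94.0 and 105 RPKM in tumors and at 454 to 560 against 470 to 524 FPKM in cells, differences of -1.03 ± 0.17 and -0.07 ± 0.11 (SE).

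Genes of MHC class I presentation mostly went opposite ways. Of 15 compared genes of MHC class I and peptide processing, 12 were higher in sh4 tumors and lower in sh4 cells and 1 was higher in both, against 14.9% and 20.6% of all compared genes. The medians were 0.35 in tumors and -0.13 in cells, both keeping their sign under the other scalings, and 0 members were called in either table. Summed T cell markers were also higher in sh4 tumors (42.2 to 79.5 against 20.7 to 26.8 RPKM), and their part in these tumor values was not tested. *H2-K1*, a class I heavy chain, was at 399, 228 and 350 against 510, 666 and 553 RPKM in tumors and at 68.5, 78.8 and 78.8 against 68.3, 64.0 and 61.3 FPKM in cells. *H2-D1*, another heavy chain, was at 980, 884 and 860 against 1267, 1150 and 1511 RPKM and at 156, 181 and 173 against 149, 152 and 132 FPKM. For both genes the groups did not overlap in either table, on opposite sides. In cells the margin for *H2-K1* was small, at 68.47 FPKM in scramble culture 1 against 68.33 FPKM in sh4 culture 1. The tumor minus cell difference was 1.07 (95% interval 0.50 to 1.65) for *H2-K1* and 0.75 (0.36 to 1.15) for *H2-D1*, with a limma adjusted p of 0.569 for each. The peptide transporter gene *Tap1* differed by 0.77 and -0.09. Reads of *H2-K1*, *H2-D1* and their near copies can be split by counting and are uncertain in that respect. The interferon gamma response list, which also holds *Tap1*, had 17 compared genes. Of these, 10 were higher in tumors and lower in cells, 3 higher in both and 2 lower in both. Type I interferon-stimulated genes were more mixed, with 11 of 23 higher in tumors and lower in cells, 5 higher in both and 5 lower in both. In cells 1 of the 23 was called higher and 3 lower, against 0.67% and 1.25% of compared genes. *Ifit1*, an antiviral RNA-binding protein gene, rose by 0.91 in cells (limma adjusted p = 0.036) with 0.12 ± 0.38 (SE) in tumors. *Oasl2*, *Trim30a* and *Lgals3bp* fell by 0.59, 0.50 and 0.47 in cells, with tumor differences of 0.12, -0.01 and -0.03. Outside these lists, the interferon-inducible genes *AW112010* and *Gvin1* fell by 1.12 and 0.79 in cells and differed by 0.73 ± 0.37 and 0.65 ± 0.46 (SE) in tumors, with overlap there.

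Growth genes went the reverse way, higher in cells and lower in tumors. Of 26 genes of DNA replication and nucleotide supply 19 did so, and 15 of 20 mitotic genes, against 31.2% of all compared genes. Medians were -0.18 and 0.13 (tumors and cells) for replication and -0.33 and 0.16 for mitosis. *Rrm2*, the small subunit of ribonucleotide reductase, rose by 0.42 in cells (limma adjusted p = 0.031) and was the single called member. Over all compared genes 0.67% were called higher in cells. In tumors *Rrm2* was at 19.5, 23.3 and 16.2 against 22.3, 7.53 and 13.4 RPKM, with overlap through sh4 tumor 1. *Plk1*, a mitotic kinase, differed by -0.51 in tumors and 0.16 in cells. The pattern was not particular to growth genes. It held for 13 of 19 genes of cholesterol and fatty acid synthesis, 11 of 17 p53 targets and 15 of 27 oxidative phosphorylation genes. Of 20 glycolysis and hypoxia genes 8 had it, and of 19 Myc and nucleolar genes 4. Of 25 histone cluster genes named Hist1, Hist2 or Hist3, 24 were higher in cells and lower in tumors, and 0 were called in cells. Their median tumor difference was -0.91, -0.52 and 0.001 in experiments 1, 2 and 3. *Hist1h2bc* was at 49.1, 32.6 and 41.6 against 25.9, 32.5 and 24.0 RPKM and at 173, 224 and 248 against 276, 324 and 316 FPKM. Most histone messages lack a poly(A) tail, and tumor libraries were mRNA while cell libraries were total RNA. The median level of these genes was 2.15 RPKM in tumors and 235 FPKM in cells. The part of the library type was not tested.

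**Figure D5:**
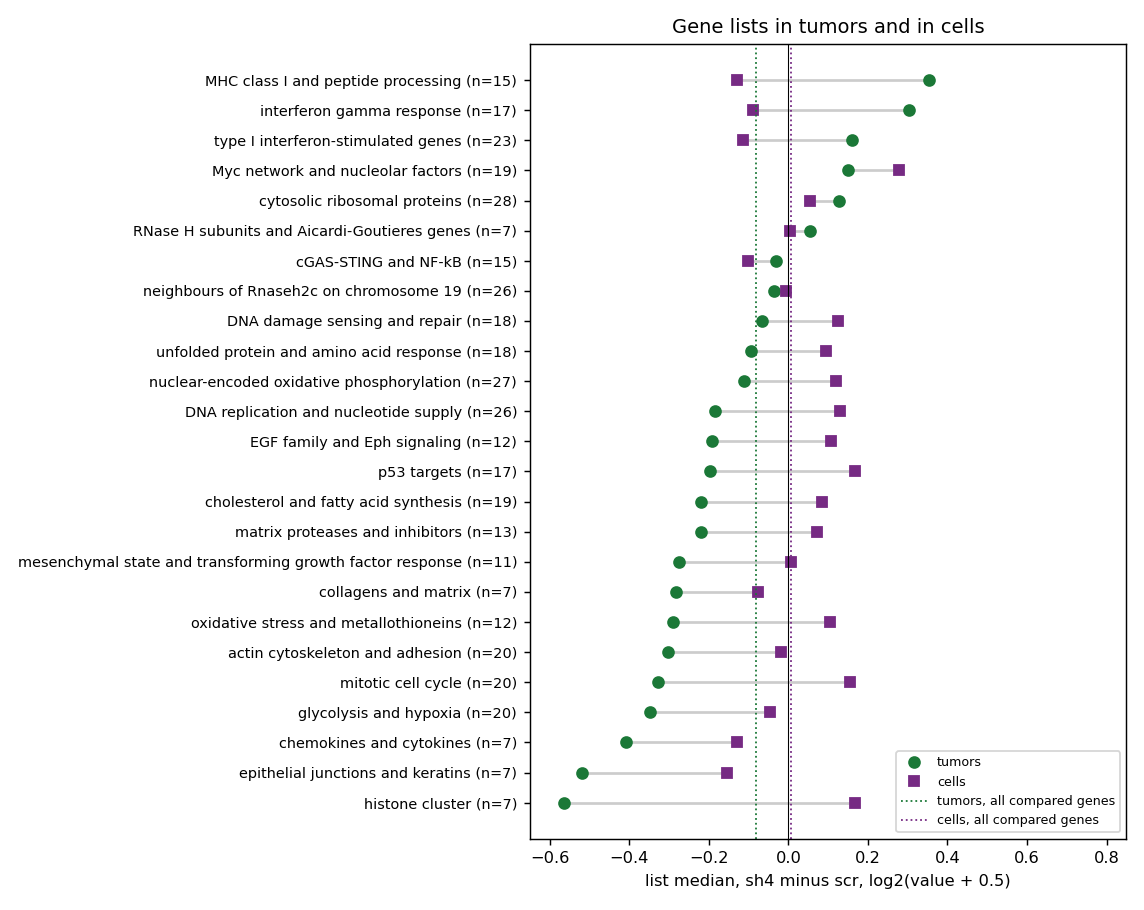
Median difference (sh4 minus scramble, log2(value + 0.5)) over the compared members of each gene list with at least 7 of them, in tumors (green circles) and cells (purple squares), with dotted lines at the medians of all compared genes (-0.08 and 0.007). MHC class I genes lie at 0.35 and -0.13, Myc and nucleolar factors at 0.15 and 0.28, and mitotic genes at -0.33 and 0.16.

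Of the genes called in cells, 4 had tumor groups separated on the opposite side, namely *Cdsn*, *Tnfrsf12a*, *Tmem176a* and *Stk40*. Among the 106 called lower this was 1 gene, against 1.96% of compared genes separated upward in tumors. Among the 57 called higher it was 3, against 5.95% separated downward. Neither count exceeded that background share. *Cdsn*, which encodes the junction protein corneodesmosin, was at 1.85, 2.97 and 1.76 against 1.09, 0.61 and 0.56 RPKM in tumors and at 2.91, 2.69 and 3.24 against 4.46, 4.29 and 4.18 FPKM in cells. It rose by 0.48 in cells (limma adjusted p = 0.049), and the tumor minus cell difference was -1.58 (95% interval -2.17 to -0.996, adjusted p = 0.245). *Tnfrsf12a*, the receptor of the cytokine TWEAK, was at 43.2, 54.5 and 42.3 against 29.7, 34.7 and 35.1 RPKM and at 61.8, 72.5 and 75.5 against 112, 105 and 100.5 FPKM, with a difference of -1.08 (-1.49 to -0.67). *Tmem176a*, a membrane protein gene, was at 43.0, 35.5 and 55.6 against 60.7, 62.8 and 57.8 RPKM and at 4.37, 4.21 and 4.79 against 2.72, 3.04 and 2.81 FPKM. It fell by 0.56 in cells, with a tumor minus cell difference of 1.02 (0.56 to 1.47). *Stk40*, a serine/threonine kinase gene, rose by 0.40 in cells with -0.22 ± 0.17 (SE) in tumors. *Jun*, a subunit of the transcription factor AP-1, rose by 0.58 in cells and differed by -0.51 ± 0.22 (SE) in tumors, where scramble tumor 1 at 9.64 RPKM lay within the sh4 range of 6.36 to 10.1 RPKM. None of these 5 passed the test of unequal response over all compared genes.

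Counted over all compared genes, the sh4 and scramble libraries were fully separated in both tables for 247 genes. Of these, 122 were lower in both, 49 higher in both, 51 higher in cells and lower in tumors, and 25 the reverse. The background was 18.4% of compared genes separated upward and 16.6% downward in cells, and 1.96% and 5.95% in tumors. In protein-coding genes alone, 8340 of the 8510, the same-sign share was 53.9% and r 0.13, and the 27 lincRNA genes had 59.3% and 0.21.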

How the data were processed

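RNA-seq of 6 tumors (mRNA) and 6 cell cultures (total RNA) was used. Tumor values were deposited as RPKM, which the authors made with Trimmomatic, Tophat on mm9 with Ensembl genes and Partek Genomics Suite. Cell values were deposited as FPKM for Ensembl genes and assembled loci. The authors' processing notes list TopHat2 2.1.0 and STAR 2.7 without roles, so the aligner of the cell table is not given in the sources used here. Neither table gives read counts, and the depth is unknown. The worth of 1 read in low tumor values differed by at most 0.159% between libraries, with 72.9% to 81.6% of the checked values within 1% of a whole multiple, too few to recover reads. The precision is thus limited by 3 libraries per group.

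Of 10723 tumor genes whose mean reached 1 RPKM, 251 had no symbol in the cell table, 15 had a symbol with several IDs and 1947 were under 1 FPKM in cells, which left 8510. Values were tested as log2(value + 0.5) with limma 3.58.1 (R 4.3.3, variance trend, Benjamini-Hochberg) over genes with a mean of at least 0.1 in a table, and in a joint fit over the compared genes. On simulated data the joint tests called more unchanged genes than their threshold allows. Deviations from group means of tumors with the same experiment number had correlations of 0.55, 0.53 and -0.32. The design text states that tumors came from separate experiments, so the experiment pairs them. The main fits, with their SEs and intervals, left this pairing out, and the block was run only as an alternative. Coordinates are mm9 (GENCODE vM1) and promoters RefSeq GRCm38.p6.

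The members and lists were chosen with earlier results of these data known. Genes were named by rule as RNase H genes, the called genes with at least 0.5 in both tables by sign, those with the smallest p for the shared and the unequal response, the largest called cell differences, and a few of each list. Hosts of snoRNAs shown and *Npcd* were added as partners of named genes, and Snord49a, *Stk40*, *Oasl2*, *Trim30a* and *Lgals3bp* were chosen after their values were seen to complete counts. Alternatives were other pseudocounts, filters, scalings, variance models, gene classes, a replicate block and leaving out each library.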

Additional observations from a re-analysis of the deposited data

How the results depend on the processing

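Agreement between tumors and cells stayed weak. Pearson's r was 0.088 with compared genes at a mean of at least 0.1, 0.180 at a mean of at least 5, 0.0545 within tumor experiment 2 and 0.104 to 0.155 on leaving out each library. The same-sign share was 56.4% after quantile normalization, 50.7% within experiment 2 and 51.7% to 56.5% on leaving out each library. Calls in cells were the least stable, at 64 without a filter (7 then in tumors), 171 without the variance trend, 1219 after quantile normalization, 961 after median-ratio scaling and 2 to 242 without 1 library. Genes called lower in cells were lower in tumors in 53.8% within experiment 1 and 65.1% to 100% on leaving out each library, and called higher ones were higher in 50% to 100%, and in 100% with a cell difference of at least 1, which leaves only *Mt1* and *Mt2*. Without any 1 culture other than scramble culture 1 these shares rest on at most 6 lower and 2 higher genes. Without scramble culture 3 no compared gene was called higher. The shared response called 2 genes with a pseudocount of 0.1, 1 at a mean of at least 5, 25 after quantile normalization, 3 after median-ratio scaling, 1 with table weights and 0 to 631 on leaving out each library. The unequal response called 0 to 232. Without scramble culture 2 each joint test called 1 gene, Snora64, and without scramble tumor 2 the unequal response called Hist1h2bg. The replicate block gave 1 shared call, raised tumor genes at an unadjusted p under 0.05 from 564 to 911 with 0 calls, and left 0 calls in cells, whose numbers are only shared numbers (correlations of -0.20, -0.05 and -0.21). With 0 calls the block gave no direction shares. On leaving out each library the tumor difference of *Mt1* ranged from -0.27 to 0.41, of *Mt2* from -0.23 to 0.45, of *Il2rg* from -0.39 to 0.13 and of *Ifit1* from -0.30 to 0.50. The causes were not tested. Values of single named genes kept direction and call in 966 refits, lost the call in 202, gained it in 11 and turned sign in the 12 within these 4 ranges.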

Other observations

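Genes that the cell line hardly expressed varied more in tumors than those compared. The 1947 genes with at least 1 RPKM in tumors and under 1 FPKM in cells had a median tumor difference of 0.06 and an SD of 0.47, against -0.08 and 0.26 for compared genes. A 2-fold difference was reached by 43 of them in each direction (4.42%), against 0.423% of compared genes. Of these, *Ccl17*, a chemokine for T cells, differed by 2.43 and *Cd8b1*, a co-receptor chain of cytotoxic T cells, by 1.46. The granzyme genes *Gzmg*, *Gzmd* and *Gzmf* differed by -2.71, -2.27 and -2.24. None passed limma's test over the tumor table, and these genes were chosen after their values were seen.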
